A study of Homo sapiens with 16 samples.

Results

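Transcription factors that set endoderm and lung identity were followed across all libraries of the study: HNF4A, HNF4G, FOXA1, FOXA2, GATA6 and NKX2-1. They were chosen by name, as the rows of the deposited gene tables that carry these symbols. Of the 6 genes, 5 had a row among the 18227 genes of the tables, and NKX2-1 was not analysed here. The study sequenced mRNA from A549 and H2023, established human lung cancer lines, as wild type and with a knockout of ZC3H12A. ZC3H12A encodes Regnase-1, an RNase that shortens the life of many inflammatory mRNAs. The 8 groups, of 2 libraries each, were A549 wild type, A549 knockout, H2023 wild type and H2023 knockout, each after 3 days under normal culture conditions and after 7 days in a culture meant to enrich stem cells, below the stem-enriched culture. Culture and days in culture changed together, so the effects of the 2 cannot be told apart. The titles of the knockout libraries name 1 clone in each line, so the edit and other properties of that clone cannot be told apart either. Nothing in the labels says that the replicates of a group came from separate cultures, and p-values measure the spread between these libraries only.

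HNF4A and HNF4G are nuclear receptors that bind the same DNA sequence and hold liver, gut and kidney epithelia in their differentiated state. FOXA1 and FOXA2 are forkhead factors that open chromatin for other factors during the formation of endoderm organs, the lung among them. GATA6 is a zinc finger factor of early endoderm and of the developing lung and stomach. NKX2-1 is the factor most closely tied to lung identity, and adenocarcinomas that lose it often turn on gastric and gut-type genes.

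Each library listed between 13824 and 14508 genes at 1 TPM (a level per transcript length, scaled to the same total in each library) or more, and replicates correlated across genes with r of 0.977 to 0.990. TPM keeps no record of depth, so the depth of each library is unknown. The mitochondrial share of TPM ran from 10.3% to 18.7% among normal-culture libraries and from 19.5% to 25.6% among stem-enriched ones. The targeted transcript ZC3H12A was lower only in A549 normal culture, at 30.72 and 34.88 TPM in wild type and 16.9 and 19.93 TPM in the knockout-labelled libraries. It was higher in those libraries in the other three comparisons, so the genotype is given below as labelled. The keratin and adhesion genes EPCAM, CDH1, KRT7, KRT8, KRT18 and KRT19 all had rows and summed to 2571 to 13030 TPM, as in an epithelial culture. Of 12 markers of leukocytes, endothelium and fibroblasts, 6 had rows, and their sum was 3.56 to 56.85 TPM, most of it from CD14 in A549.

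In A549, all members with a row were lower in the knockout-labelled libraries than in wild type, in both cultures. In normal culture 4 of 5 passed the test and in stem-enriched culture 5 of 5. In H2023 none passed in normal culture, where FOXA1 and GATA6 had an unadjusted p under 0.05, and in stem-enriched culture only GATA6 passed, in the opposite direction. The test was limma on log2(TPM + 1), fitted over all 16 libraries, with Benjamini-Hochberg adjustment over all genes and a threshold of 0.05. Of all genes, 17.7% and 20.7% were called in A549 normal and stem-enriched culture, and 3.0% and 5.56% in the same cultures of H2023. A fit to the 4 libraries of a comparison alone called 1971 and 2413 genes in A549 and 0 in both H2023 comparisons, where 3314 and 2828 genes had an unadjusted p under 0.05. Calls in H2023 therefore rest on the spread shared over all groups. The median log2 fold change of the members was -1.11 and -1.48 in the A549 comparisons, beside -0.03 and 0.03 for all genes. In H2023 it was -0.47 and -0.20, beside 0.01 and 0.06 for all genes. In bulk RNA, fewer cells with a transcript and less transcript per cell cannot be told apart.

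**Figure D1:**
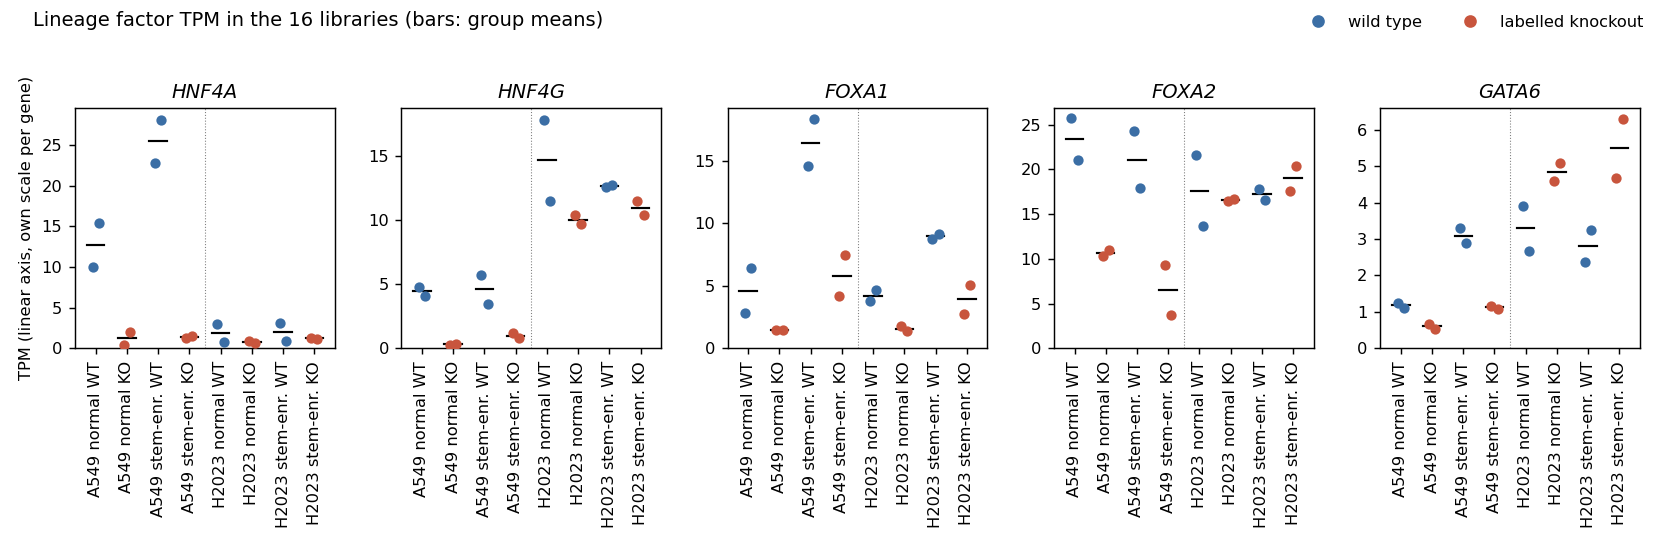
TPM of the 5 transcription factors (vertical axes, linear, 1 scale per gene) in the 8 groups (horizontal axis), with 1 point per library and a bar at the mean of 2 libraries; blue is wild type and red is labelled knockout. The A549 wild-type libraries hold the highest HNF4A points, up to 28.12 TPM, and the H2023 libraries the highest HNF4G points, up to 17.84 TPM.

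HNF4A (ENSG00000101076, + strand of chromosome 20, 44355700 to 44434596 in GRCh38) showed the widest range of the members. In A549 normal culture it stood at 9.99 and 15.46 TPM in wild type and at 0.39 and 2.05 TPM in the knockout-labelled libraries. In A549 stem-enriched culture it stood at 22.74 and 28.12 TPM in wild type and at 1.25 and 1.47 TPM in the knockout-labelled libraries. In both cultures each knockout-labelled library lay below each wild-type library. The log2 fold changes were -2.71 (SE 0.45, limma adjusted p = 0.00174) and -3.48 (SE 0.45, limma adjusted p = 1.966e-04). The fold was not shown to differ between the cultures of A549: the stem-enriched minus normal difference was -0.77, with a 95% interval of -2.15 to 0.61.

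In H2023 the transcript was already scarce in wild type. It stood at 2.94 and 0.80 TPM in wild type and 0.87 and 0.69 TPM in the knockout-labelled libraries of normal culture. Stem-cell-enriched culture gave 3.14 and 0.86 TPM in wild type and 1.31 and 1.16 TPM in the knockout-labelled libraries. In both cultures wild-type replicate 1 was above the other three libraries, and the groups overlapped. The HNF4A log2 fold changes were -0.58 (95% interval -1.56 to 0.39) and -0.31 (95% interval -1.29 to 0.66), neither past the threshold. Without wild-type replicate 1, the second of these was 0.26.

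HNF4A is transcribed from alternative promoters, and TPM per gene does not separate them. The sequence before the start that RefSeq gives for HNF4A is shown because it holds a match to a GATA motif, the kind of element that GATA6 binds. It lies at chr20:44355589-44355698, + strand, GRCh38. Capitals mark the match AGATAA, which begins 26 bases before the start.
HNF4A: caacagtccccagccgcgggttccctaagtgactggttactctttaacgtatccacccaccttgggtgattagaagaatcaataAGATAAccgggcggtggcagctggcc
The motif AGATAA, searched on both strands, was found in the 250 bases before the start for 9.17% of all 35116 promoter windows. A match describes letters and not binding.

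HNF4G (ENSG00000164749, + strand of chromosome 8, 75407914 to 75566843 in GRCh38), the paralog of HNF4A, had the opposite balance between the lines. In A549 normal culture it was at 4.81 and 4.10 TPM in wild type and at 0.26 and 0.34 TPM in the knockout-labelled libraries. In A549 stem-enriched culture the values were 5.75 and 3.43 TPM in wild type and 1.18 and 0.77 TPM in the knockout-labelled libraries. The groups were apart in both cultures, with log2 fold changes of -2.07 (SE 0.23, limma adjusted p = 1.402e-04) and -1.48 (SE 0.23, limma adjusted p = 8.027e-04).

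In H2023, HNF4G was at 17.84 and 11.46 TPM in wild type and 10.38 and 9.71 TPM in the knockout-labelled libraries of normal culture. In stem-enriched culture it was at 12.61 and 12.73 TPM in wild type and 11.46 and 10.43 TPM in the knockout-labelled libraries. The knockout-labelled libraries were lower without overlap in both cultures, but the change passed the threshold in neither. The HNF4G log2 fold changes were -0.47 (95% interval -0.98 to 0.04, limma adjusted p = 0.326) and -0.20 (95% interval -0.71 to 0.31, limma adjusted p = 0.698).

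The 2 HNF4 genes together gave 14.8 to 31.55 TPM in A549 wild-type libraries, and HNF4A held 67.5% to 89.1% of that sum. In H2023 wild-type libraries HNF4A held 6.3% to 19.9% of it. The sum in A549 knockout-labelled libraries was 0.65 to 2.43 TPM, while in H2023 it was 10.4 to 20.78 TPM over both genotypes. So the A549 knockout-labelled libraries were the only ones here with little of either HNF4 transcript. The reads of HNF4A and HNF4G, which are similar in their coding parts, were assigned by the authors, and how reads that fit both were treated is not given in the sources used here.

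**Figure D2:**
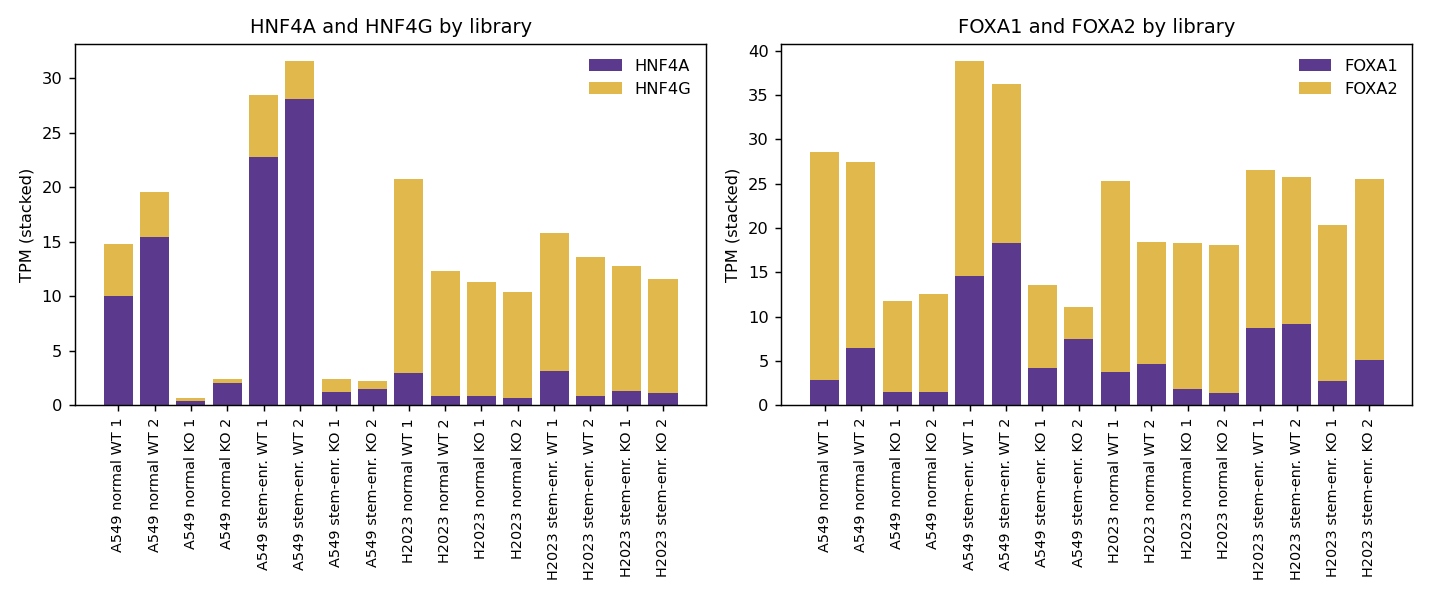
Stacked TPM (vertical axes) of HNF4A with HNF4G (left) and of FOXA1 with FOXA2 (right) in each of the 16 libraries (horizontal axes; WT, wild type; KO, labelled knockout). The HNF4 sum is 0.65 to 2.43 TPM in the 4 A549 knockout-labelled libraries and at least 10.4 TPM elsewhere; FOXA2 makes up most of the FOXA sum in H2023.

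Between the wild-type lines, 41.5% of genes were called in normal culture and 47.8% in stem-enriched culture. In normal culture the all-gene median of H2023 minus A549 was 0.12 on the log2 scale. HNF4A was lower in H2023 than in A549 by a log2 fold change of -2.34 (limma adjusted p = 0.00136) in normal and -3.24 (limma adjusted p = 1.065e-04) in stem-enriched culture. HNF4G was higher in H2023, by 1.49 (limma adjusted p = 3.358e-04) and 1.32 (limma adjusted p = 6.338e-04). GATA6 was higher in H2023 in normal culture, by 0.97 (limma adjusted p = 0.00191). In stem-enriched culture the lines were not shown to differ in GATA6, with a difference of -0.11 and a 95% interval of -0.54 to 0.32. FOXA2 was not called between the lines in either culture, with 95% intervals of -1.08 to 0.25 and -0.93 to 0.40. FOXA1 was not called either, with intervals of -0.74 to 0.69 and -1.52 to -0.09.

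FOXA1 (ENSG00000129514, - strand of chromosome 14, 37589984 to 37596059 in GRCh38) was lower in the knockout-labelled libraries of both lines. In A549 normal culture it was at 2.79 and 6.41 TPM in wild type and at 1.45 and 1.46 TPM in the knockout-labelled libraries. In A549 stem-enriched culture it was at 14.55 and 18.35 TPM in wild type and at 4.19 and 7.43 TPM in the knockout-labelled libraries. The libraries did not overlap, and the log2 fold changes were -1.11 (SE 0.33, limma adjusted p = 0.0365) and -1.39 (SE 0.33, limma adjusted p = 0.0102). The first was smaller without wild-type replicate 2, at -0.63 (limma adjusted p = 0.252), and its call was also lost without either knockout-labelled library or with only the groups compared (limma adjusted p = 0.102). The second was lost without wild-type replicate 2 (limma adjusted p = 0.0672) or labelled knockout replicate 1 (limma adjusted p = 0.0944).

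In H2023, FOXA1 was at 3.77 and 4.66 TPM in wild type and at 1.79 and 1.37 TPM in the knockout-labelled libraries of normal culture. The H2023 stem-enriched culture gave 8.75 and 9.16 TPM in wild type and 2.72 and 5.10 TPM in the knockout-labelled libraries. Here too no knockout-labelled library reached a wild-type one. The FOXA1 log2 fold changes were -1.02 (SE 0.33, limma adjusted p = 0.13) and -1.06 (SE 0.33, limma adjusted p = 0.0814), which did not pass the threshold. The authors' deposited tables give FOXA1 in H2023 as -1.42 with an adjusted p of 2.576e-04 in normal culture and -1.09 with an adjusted p of 0.059 in stem-enriched culture. FOXA1 was the member whose change was closest between the lines: the H2023 minus A549 difference was 0.10 (95% interval -0.92 to 1.11) in normal and 0.33 (95% interval -0.69 to 1.34) in stem-enriched culture. These intervals leave room for a difference of about the size of the change itself.

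FOXA2 (ENSG00000125798, - strand of chromosome 20, 22581005 to 22585455 in GRCh38) had the highest mean of the members in each group but A549 wild type of stem-enriched culture, where HNF4A was higher. In A549 normal culture it was at 25.74 and 21.02 TPM in wild type and at 10.35 and 11.04 TPM in the knockout-labelled libraries. In A549 stem-enriched culture it was at 24.28 and 17.88 TPM in wild type and at 9.34 and 3.69 TPM in the knockout-labelled libraries. The groups were apart, with log2 fold changes of -1.05 (SE 0.30, limma adjusted p = 0.0328) and -1.65 (SE 0.30, limma adjusted p = 0.00222). The first lost its call when any 1 of the 4 libraries compared was left out, with limma adjusted p-values of 0.065 to 0.187, and the second with only the groups compared (limma adjusted p = 0.0555).

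In H2023, FOXA2 was at 21.57 and 13.72 TPM in wild type and 16.47 and 16.68 TPM in the knockout-labelled libraries of normal culture. In stem-enriched culture it was at 17.83 and 16.63 TPM in wild type and 17.62 and 20.39 TPM in the knockout-labelled libraries. The H2023 groups overlapped in both cultures, with FOXA2 log2 fold changes of -0.05 (95% interval -0.72 to 0.61) and 0.13 (95% interval -0.53 to 0.79). LINC00261, a long noncoding RNA gene next to FOXA2 at 22547671 to 22578642 on the same strand of chromosome 20 in GRCh38, was at 0.35 to 3.17 TPM in the 16 libraries and was called by limma in none of the 4 comparisons of genotype. The authors' deposited tables give it as lower in A549 stem-enriched culture, at -1.98 with an adjusted p of 0.0229.

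GATA6 (ENSG00000141448, + strand of chromosome 18, 22169443 to 22202528 in GRCh38) moved in opposite directions in the lines. In A549 normal culture it was at 1.24 and 1.11 TPM in wild type and at 0.66 and 0.54 TPM in the knockout-labelled libraries. That difference, a log2 fold change of -0.44 (SE 0.20, limma adjusted p = 0.14), did not pass the threshold. In A549 stem-enriched culture it was at 3.30 and 2.88 TPM in wild type and at 1.15 and 1.09 TPM in the knockout-labelled libraries, and the log2 fold change of -0.95 (SE 0.20, limma adjusted p = 0.00452) did.

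In H2023 normal culture GATA6 was at 3.91 and 2.68 TPM in wild type and at 4.59 and 5.08 TPM in the knockout-labelled libraries. In H2023 stem-enriched culture it was at 2.37 and 3.25 TPM in wild type and at 4.68 and 6.30 TPM in the knockout-labelled libraries. Both knockout-labelled libraries were above both wild-type libraries in each culture. The GATA6 log2 fold changes were 0.46 (SE 0.20, limma adjusted p = 0.253) and 0.77 (SE 0.20, limma adjusted p = 0.0423). The second call was lost with a pseudocount of 0.1 (limma adjusted p = 0.0743), with median centring (limma adjusted p = 0.0617) and with only the groups compared (limma adjusted p = 0.288). It was lost without any 1 of the 4 libraries compared (limma adjusted p = 0.0577 to 0.214) and without any 1 library of the other groups but H2023 wild type of normal culture (limma adjusted p = 0.0513 to 0.0594), and the authors' deposited tables give it an adjusted p of 0.195.

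**Figure D3:**
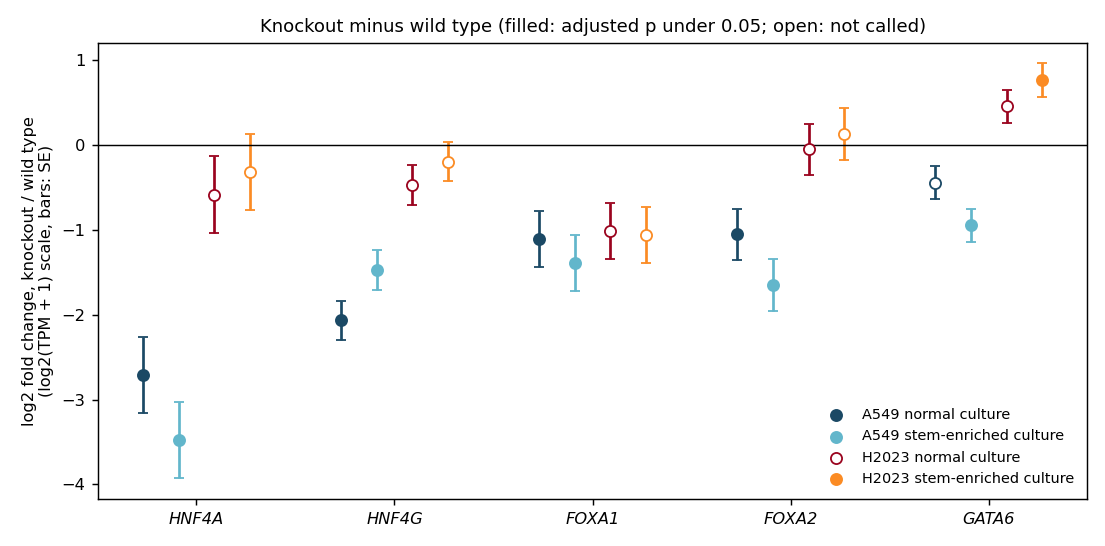
Log2 fold change of labelled knockout over wild type on the log2(TPM + 1) scale (vertical axis, bars show the standard error) for the 5 members (horizontal axis) in the 4 line and culture comparisons; filled points passed an adjusted p of 0.05. HNF4A, HNF4G and FOXA2 separate the A549 points from the H2023 points, FOXA1 sits between -1.39 and -1.02 in all 4, and GATA6 lies below 0 in A549 and above 0 in H2023.

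The authors' deposited tables called 4 members lower in A549 normal culture and 5 lower in A549 stem-enriched culture, against 22.1% and 20.7% of all genes called. They called 1 lower in H2023 normal culture, FOXA1, and none in H2023 stem-enriched culture, against 10.8% and 5.07% of all genes.

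Whether the change with genotype differed between the lines was tested by an interaction term. It was called for 12.1% of all genes in normal and 16.3% in stem-enriched culture. In normal culture 2 members passed, HNF4A with an H2023 minus A549 difference of 2.12 (SE 0.63, limma adjusted p = 0.0483) and HNF4G with 1.59 (SE 0.33, limma adjusted p = 0.00968). In stem-enriched culture 4 members passed: HNF4A with 3.17 (limma adjusted p = 0.00534), FOXA2 with 1.78 (limma adjusted p = 0.0147), GATA6 with 1.71 (limma adjusted p = 0.00153) and HNF4G with 1.28 (limma adjusted p = 0.0205). For GATA6 in normal culture the difference was 0.90 (limma adjusted p = 0.0538). HNF4A in H2023 wild type was at 0.80 to 3.14 TPM, and log2(TPM + 1) cannot go below 0. On that scale a fall as large as in A549 was therefore not possible in H2023. What part this has in the HNF4A difference between the lines was not tested. From the authors' deposited fold changes, which are not on that scale, the HNF4A difference was 2.49 in normal and 3.87 in stem-enriched culture. The HNF4A call in normal culture was lost in a fit to the 8 libraries of that culture alone (limma adjusted p = 0.0725) and with a pseudocount of 0.1 (limma adjusted p = 0.103). It was also lost with no trend (limma adjusted p = 0.0534), without mitochondrial genes (limma adjusted p = 0.0628) and without most of the libraries when left out singly. In stem-enriched culture the FOXA2 call was lost without A549 wild-type replicate 1 (limma adjusted p = 0.062) or H2023 labelled knockout replicate 2 (limma adjusted p = 0.0506), and with only the groups compared (limma adjusted p = 0.0628). The HNF4G call was lost without A549 wild-type replicate 1 or labelled knockout replicate 2, without H2023 replicate 1 of either genotype, or with only the groups compared (limma adjusted p = 0.0504 to 0.0815). No member's change with genotype was called as different between the cultures within a line, against 9.71% of all genes in A549 and 0.00549% in H2023.

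The members responded unevenly to the culture. Stem-cell-enriched over normal culture called 41.5% of all genes in A549 wild type, 22.4% in A549 labelled knockout, 27.4% in H2023 wild type and 32.5% in H2023 labelled knockout. FOXA1 rose in A549 wild type by a log2 fold change of 1.71 (SE 0.33, limma adjusted p = 0.00131) and in A549 labelled knockout by 1.43 (SE 0.33, limma adjusted p = 0.00809). The latter was lost without stem-enriched replicate 2 (limma adjusted p = 0.0811). In H2023 it was higher in stem-enriched culture by 0.94 (limma adjusted p = 0.0523) in wild type and by 0.89 (limma adjusted p = 0.0568) in the knockout-labelled libraries, just short of the threshold. In the H2023 wild-type comparison the all-gene median was -0.18 and in the labelled knockout one -0.12, and with libraries centred on their medians FOXA1 passed in both, as it did with TPM recomputed without mitochondrial genes. GATA6 rose in A549 wild type by 0.91 (SE 0.20, limma adjusted p = 0.00268) and was called in no other comparison of cultures.

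HNF4A in A549 wild type was higher in both stem-enriched libraries than in both normal ones, with a difference of 0.97 (95% interval -0.01 to 1.94, limma adjusted p = 0.104). HNF4G and FOXA2 were not called between cultures in either line, and HNF4G in A549 wild type differed by 0.01 (95% interval -0.50 to 0.52). The A549 wild-type libraries of stem-enriched culture serve in this comparison and in the comparison of genotypes, so the 2 sets of values are not independent. The mitochondrial share was higher in every stem-enriched library, and its part in the culture results was not tested beyond recomputing TPM without those genes. The A549 wild-type calls of FOXA1 and GATA6 passed without them.

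Over the 8 group means, HNF4A ran from 25.4 ± 3.80 TPM (SD, n = 2) in A549 wild type of stem-enriched culture and 12.7 ± 3.87 TPM (SD, n = 2) in that of normal culture down to 6 groups at or below 2.0 TPM, whose neighbours in the order overlapped. HNF4G ran from 14.7 ± 4.51 TPM (SD, n = 2) in H2023 wild type of normal culture to 0.30 ± 0.06 TPM (SD, n = 2) in A549 labelled knockout of normal culture, with all H2023 groups above all A549 groups. FOXA1 was highest in A549 wild type of stem-enriched culture, at 16.5 ± 2.69 TPM (SD, n = 2), ahead of the same culture of H2023 wild type at 8.96 ± 0.29 TPM (SD, n = 2). The first 6 FOXA2 groups overlapped with their neighbours and lay between 16.6 and 23.4 TPM, above the A549 labelled knockout groups at 10.7 ± 0.49 and 6.52 ± 4.0 TPM (SD, n = 2 each). GATA6 was highest in the H2023 labelled knockout groups, at 5.49 ± 1.15 and 4.84 ± 0.35 TPM (SD, n = 2 each), which overlapped.

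Likeness of pattern was measured by Pearson's r of log2(TPM + 1) over the 16 libraries, which share line, culture and clone, so it is a description. Among the members, GATA6 and HNF4G had an r of 0.838, FOXA2 and HNF4G 0.65, FOXA1 and HNF4A 0.631, and HNF4A and HNF4G -0.03. Out of 14788 genes, those most like HNF4A were CLEC4E (0.942), ST6GAL2 (0.938) and LGALS2 (0.935). LGALS2 was at 2.97 to 28.58 TPM in A549 wild type and at or below 0.31 TPM in all other libraries. HNF4G was most like PLCB1 (0.982), CDH19 (0.976) and AKR1C2 (0.975). FOXA1 was most like ATP1B1 (0.947), PLA2G4A (0.928) and CIDEC (0.925). FOXA2 was most like C2CD5 (0.886), TASP1 (0.881) and NOTCH2NLA (0.872). GATA6 was most like UBE2J1 (0.966), ARL14 (0.95) and IBTK (0.947).

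Other endoderm transcription factors were read from a list of 26, of which 22 had rows. In the knockout-labelled libraries, 9 were lower and none higher in A549 normal culture, and 9 were lower and 2 higher in A549 stem-enriched culture. In H2023, 2 were lower in normal culture, and 1 was lower and 3 higher in stem-enriched culture. The share of all genes called, in the same order of cultures, was 17.7% and 20.7% in A549 and 3.0% and 5.56% in H2023. The medians of the list were -0.34 and -0.71 in A549 and -0.21 and 0.0 in H2023.

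SPDEF, a factor of goblet and other secretory cells, fell in A549, with log2 fold changes of -3.61 (limma adjusted p = 4.479e-04) in normal and -3.81 (limma adjusted p = 1.908e-04) in stem-enriched culture. NR1H4, the bile acid receptor, was at 25.71 and 29.08 TPM in A549 wild type of stem-enriched culture and at 0.70 and 1.17 TPM in the knockout-labelled libraries. ELF3, an epithelial ETS factor, fell in A549 normal culture, with a log2 fold change of -2.59 (limma adjusted p = 1.521e-05). NR5A2, a nuclear receptor of liver and pancreas, was at 11.05 and 5.02 TPM in wild type and at 0.46 and 0.70 TPM in the knockout-labelled libraries of A549 normal culture (log2 fold change -2.43, limma adjusted p = 7.875e-04). FOXA3, the third FOXA factor, was at 14.04 and 9.35 TPM in wild type and at 1.21 and 1.14 TPM in the knockout-labelled libraries of A549 stem-enriched culture (log2 fold change -2.52, limma adjusted p = 4.074e-04). In H2023 limma called none of these 5 factors. NR5A2 was nevertheless lower without overlap there, at 22.57 and 28.12 TPM in wild type and 14.89 and 11.08 TPM in the knockout-labelled libraries of normal culture, and at 25.24 and 20.82 TPM against 12.67 and 6.90 TPM in stem-enriched culture. The authors' deposited tables call NR5A2 lower in both H2023 cultures (adjusted p = 2.873e-05 and 0.00208) and ELF3 lower in H2023 normal culture (-0.43, adjusted p = 0.00722). NR1H4 was higher without overlap in knockout-labelled libraries of H2023 stem-enriched culture, at 11.36 and 14.57 TPM against 6.27 and 9.49 TPM. FOXA3 was so in H2023 normal culture, at 9.55 and 7.00 TPM against 5.93 and 4.17 TPM. The authors' deposited tables call neither rise (adjusted p = 0.297 and 0.116).

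The limma calls in H2023 were of other factors. In normal culture CDX2, an intestinal homeobox factor, fell, at 1.30 and 3.37 TPM in wild type and 0.35 and 0.32 TPM in the knockout-labelled libraries (limma adjusted p = 0.0235), as did CEBPB (log2 fold change -0.98, limma adjusted p = 0.00465). In stem-enriched culture SOX2 fell, from 2.33 and 1.24 TPM in wild type to 0.03 and 0.02 TPM in the knockout-labelled libraries (limma adjusted p = 0.0235). The authors' deposited tables give SOX2 as lower in normal and stem-enriched culture of both lines. The values are -3.10 and -1.13 in A549 (adjusted p = 1.568e-08 and 0.0127) and -3.98 and -5.26 in H2023 (adjusted p = 0.0214 and 3.225e-06). SOX9, a factor of lung tip and gut crypt progenitors, rose in H2023 stem-enriched culture (limma adjusted p = 0.00735). It was at 30.52 and 22.70 TPM in wild type and 67.40 and 69.09 TPM in the knockout-labelled libraries. TP63, a factor of basal cells, rose there by 1.37 (limma adjusted p = 0.00618). GATA5, named after its values were seen, rose there by 0.80 (limma adjusted p = 0.00463), from 0.13 and 0.02 TPM to 0.97 and 0.78 TPM. GATA5 was below 1 TPM in every library. The authors' deposited tables also give GATA5 as higher in A549 stem-enriched culture, at 2.70 (adjusted p = 0.0485). The calls of CDX2, CEBPB, SOX2 and SOX9 were each lost without 1 or another library (limma adjusted p = 0.0516 to 0.172), namely H2023 wild-type replicate 2 or either knockout-labelled library for CDX2, labelled knockout replicate 1 for CEBPB, wild-type replicate 1 or either knockout-labelled library for SOX2, and replicate 2 of either genotype for SOX9.

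**Figure D4:**
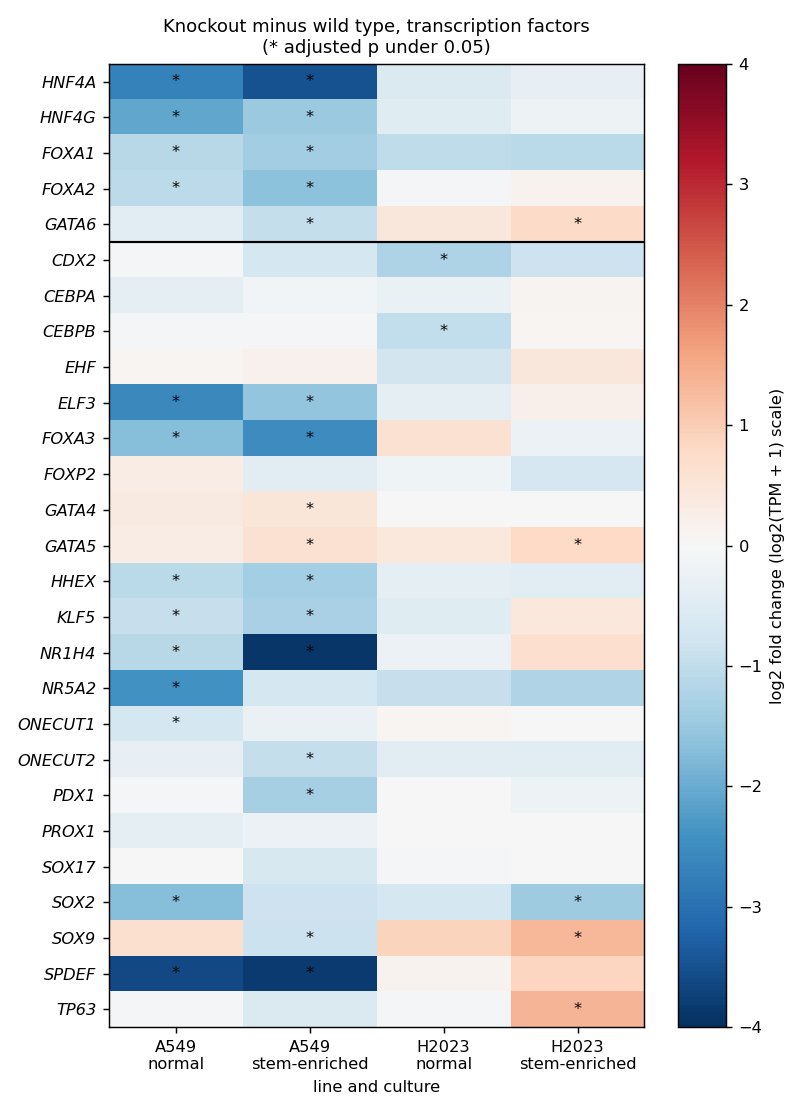
Log2 fold change of labelled knockout over wild type (colour, log2(TPM + 1) scale) for the 5 members (above the line) and 22 other endoderm transcription factors (rows) in the 4 line and culture comparisons (columns); a star marks an adjusted p under 0.05. Blue, meaning lower in labelled knockout, is concentrated in the A549 columns, where HNF4A, SPDEF and NR1H4 reach -3.48, -3.81 and -3.88 in stem-enriched culture.

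Liver-type genes, several of them known targets of HNF4A and the FOXA factors, were read from a list of 30, of which 19 had rows. In A549 9 were lower in normal culture and 14 in stem-enriched culture, with none higher. In H2023 1 was lower in normal culture, and 4 were lower and 1 higher in stem-enriched culture. The authors' deposited tables call more of them lower in H2023, and none higher. These are AGT, ALB, F5, F7, FGA, FGB and FGG in normal culture, against 10.8% of all genes called. In stem-enriched culture they are ALB, AMBP, F5, F7, FGB, FGG and SERPINA1, against 5.07%. By limma the share of all genes called was 17.7% and 20.7% in A549 and 3.0% and 5.56% in H2023. The medians of the list were -1.06 and -3.40 in A549 and -0.54 and -0.27 in H2023. The list summed to 3280 and 3289 TPM in A549 wild type of stem-enriched culture and to 56.65 and 80.04 TPM in the knockout-labelled libraries. Most of the wild-type sum came from FXYD2, FGB, FGA and FGG, at 1447.85, 710.73, 351.26 and 329.08 TPM in replicate 1. These are the genes that the rule of the part names. In H2023 stem-enriched culture the sum was 1096 to 1236 TPM in wild type and 533.8 to 602.7 TPM in the knockout-labelled libraries. ALB alone went from a mean of 302.3 TPM to 10.54 TPM there, so the sums describe a few high genes more than the list. Beside these falls, 4 of the 6 epithelial check genes were lower in A549 normal culture and 2 in A549 stem-enriched culture. In H2023 limma called none of the 6 in normal culture and 2 as higher in stem-enriched culture. KRT8 was at 3625.75 and 3568.74 TPM in wild type and 1258.78 and 765.43 TPM in the knockout-labelled libraries of A549 normal culture. What part this has in the results was not tested.

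FXYD2, a regulator of the sodium pump, was at 509.52 and 428.58 TPM in A549 wild type and 0.02 and 0.69 TPM in the knockout-labelled libraries of normal culture, a log2 fold change of -8.48 (limma adjusted p = 2.744e-05). In H2023 it was at 0.52 and 4.50 TPM in wild type and 6.45 and 6.03 TPM in the knockout-labelled libraries of normal culture, and at 4.77 and 37.61 TPM against 86.53 and 57.55 TPM in stem-enriched culture. It was thus higher without overlap and not called in H2023 (limma adjusted p = 0.406 and 0.107), but called in stem-enriched culture without wild-type replicate 2, at 3.63 (limma adjusted p = 0.0205). FGB, the beta chain of fibrinogen, was at 710.73 and 878.24 TPM in A549 wild type of stem-enriched culture and 5.44 and 3.92 TPM in the knockout-labelled libraries. In H2023 it was at 149.66 and 281.23 TPM in wild type and 97.89 and 97.33 TPM in the knockout-labelled libraries of normal culture, and at 170.91 and 239.79 TPM against 114.26 and 105.96 TPM in stem-enriched culture. The H2023 groups did not overlap, limma did not call FGB in either culture (adjusted p = 0.387 and 0.438), and the authors' deposited tables call it lower in both (adjusted p = 0.0461 and 0.00384). FGA and FGG, the other chains, fell with it in A549, with log2 fold changes of -5.63 and -6.16 (limma adjusted p = 3.499e-05 and 2.924e-04) in stem-enriched culture. In H2023 both were also lower without overlap in both cultures and not called by limma: FGG was at 92.21 and 187.94 TPM against 33.19 and 45.05 TPM in normal culture, and at 182.50 and 200.85 TPM against 114.78 and 86.77 TPM in stem-enriched culture. The authors' deposited tables call FGG lower in both H2023 cultures (adjusted p = 0.00758 and 1.883e-04) and FGA in normal culture (adjusted p = 5.637e-08). The A549 wild-type libraries of normal culture lay far apart, at 29.15 and 189.0 TPM for FGA, 53.39 and 338.9 TPM for FGB, and 5.27 and 92.05 TPM for FGG. That spread enters the limma fit of every comparison. The FGG call in A549 normal culture was lost with only the groups compared (limma adjusted p = 0.0748). With either A549 wild-type library of normal culture left out, limma called FGA and FGG in H2023 normal culture (adjusted p = 0.0179 and 0.0180 for FGA, 0.0108 for FGG).

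ALB, which encodes albumin, was called lower by limma in stem-enriched culture of both lines. It was at 24.5 and 19.12 TPM in A549 wild type of stem-enriched culture and 1.06 and 0.36 TPM in the knockout-labelled libraries. In H2023 the same culture gave 335.91 and 268.77 TPM in wild type and 18.71 and 2.38 TPM in the knockout-labelled libraries. Its log2 fold changes were -3.76 (limma adjusted p = 8.3e-04) and -5.21 (limma adjusted p = 9.07e-04). The coagulation factor gene F5 also fell in both H2023 comparisons, with log2 fold changes of -3.42 and -2.94 (limma adjusted p = 6.133e-05 and 1.65e-04).

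**Figure D5:**
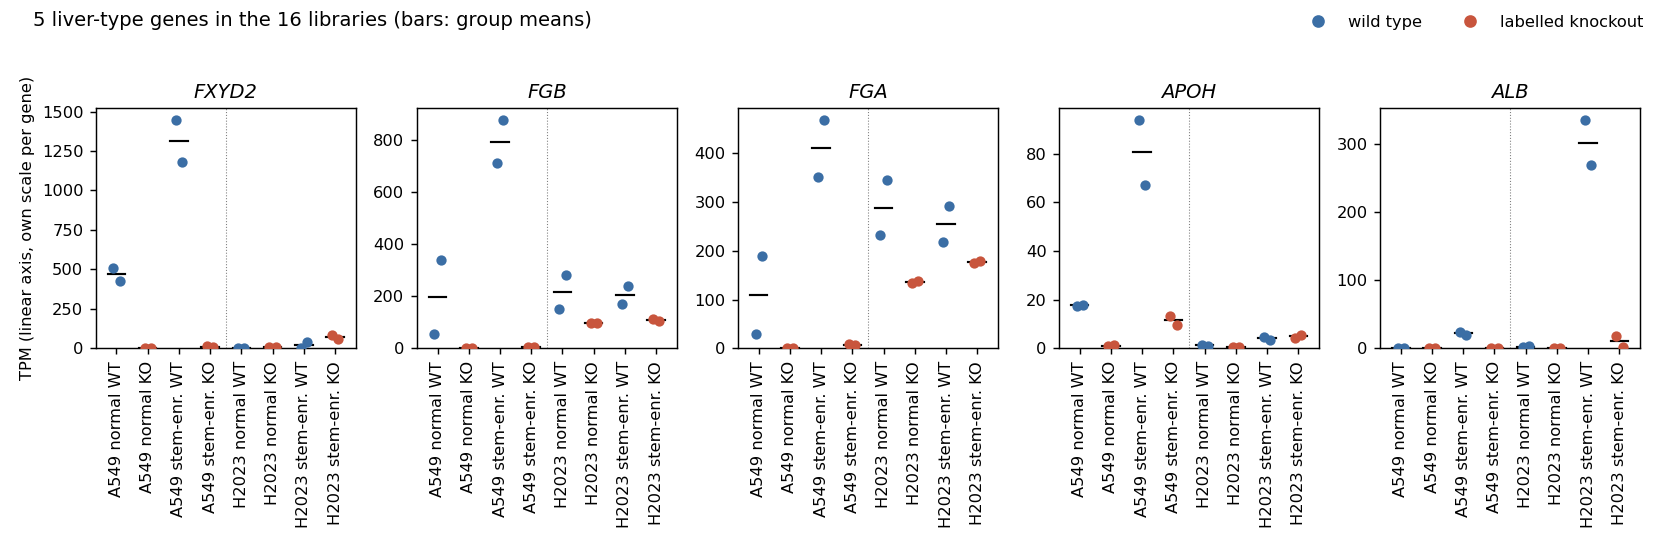
TPM (vertical axes, linear, 1 scale per gene) of 5 liver-type genes in the 8 groups (horizontal axis), with 1 point per library and a bar at the mean of 2 libraries; blue is wild type and red is labelled knockout. FGB and FGA have their lowest levels in the A549 knockout-labelled libraries, FXYD2 and APOH are highest in A549 wild type, and ALB in stem-enriched culture is lower in the knockout-labelled libraries of both lines.

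Promoters of the members and of genes tied to them were searched for exact letters on both strands in the 250 bases before the RefSeq start. The letters were CAAAGTCC and CAAAGGTCA for HNF4, TGTTTAC plus TGTTTGC for FOXA, AGATAA for GATA factors and CAAGTG for NKX2-1, and no match in these genes overlapped another. Windows were found for 23 of 27 genes, and HNF4G, FOXA2, FXYD2 and HP were not searched. The HNF4 letters CAAAGTCC were in 1 of the 17 liver-type windows, AHSG, beside 1.02% of all windows, and CAAAGGTCA in 0 of 17 beside 0.339%. TGTTTAC was in 0 of 17 beside 2.98%. TGTTTGC was in 3 of 17 (AHSG, AMBP and FGA) beside 3.23%, AGATAA in 3 of 17 (AHSG, APOH and FGG) beside 9.17%, and CAAGTG in 3 of 17 (AGT, F7 and FGB) beside 9.5%. FOXA1's own window held TGTTTGC, beginning 235 bases before its start.

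AHSG, which encodes the secreted liver protein fetuin-A, was at 2.97 and 1.94 TPM in A549 wild type of stem-enriched culture and at 0.19 and 0.0 TPM in the knockout-labelled libraries (log2 fold change -1.65, limma adjusted p = 4.2e-05). It was at or below 0.53 TPM in all other libraries. Part of its window is shown because it holds the HNF4 letters, and the gene was picked for that. Capitals mark the match, read on the other strand, which begins 178 bases before the RefSeq start. The stretch ends where the GENCODE gene begins, at chr3:186612870-186612922, + strand, GRCh38.
AHSG: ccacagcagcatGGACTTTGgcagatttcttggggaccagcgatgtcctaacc
The other matches of AHSG lie nearer to the RefSeq start, within the GENCODE gene.

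Genes of the lung's own cell types were read from a list of 24, of which 8 had rows, and none of the surfactant protein genes was among them. In A549 1 was lower and 1 higher in normal culture, and 2 were lower and 1 higher in stem-enriched culture. The share of all genes called was 17.7% and 20.7% in A549 and 3.0% and 5.56% in H2023. With 8 genes, the counts of this list were not shown to differ from those shares. In H2023 limma called none in normal culture and 1 as higher in stem-enriched culture, while the authors' deposited table for normal culture calls ABCA3 higher (0.52, adjusted p = 0.00782). ABCA3, the lipid transporter of alveolar type II cells, fell in A549, with log2 fold changes of -1.18 and -0.84 (limma adjusted p = 8.754e-04 and 0.00498) and rose in H2023 stem-enriched culture by 0.96 (limma adjusted p = 0.0102). The second of these falls was lost without A549 labelled knockout replicate 2 (limma adjusted p = 0.0575), and the rise without H2023 wild-type replicate 1 or labelled knockout replicate 2 (limma adjusted p = 0.0578 and 0.0725). NAPSA, a protease of the same cells, was at 1.09 and 1.14 TPM in wild type of A549 normal culture and higher, at 3.23 and 3.45 TPM, in the knockout-labelled libraries (limma adjusted p = 0.00524), and the authors' deposited table gives this rise an adjusted p of 0.0574. CTSH, a cathepsin, rose in A549 stem-enriched culture by 1.45 (limma adjusted p = 0.00319). The list's sum was 158.4 to 228.3 TPM over the 16 libraries, and its ranges in the 2 genotypes overlapped in each line and culture. LPCAT1, at 40.97 to 111.28 TPM, held a large part of that sum.

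Gut and gastric genes, many of which are known to depend on HNF4 factors or GATA6 in those organs, were read from a list of 24, of which 17 had rows. In A549 6 were lower and 1 higher in normal culture and 16 were lower in stem-enriched culture. In H2023 3 were lower in normal culture, and 3 were lower and 1 higher in stem-enriched culture. The share of all genes called was 17.7% and 20.7% in A549 and 3.0% and 5.56% in H2023. VIL1, villin of the brush border, was at 131.3 and 87.71 TPM in A549 wild type of stem-enriched culture and at 1.14 and 0.18 TPM in the knockout-labelled libraries. TM4SF20, a membrane protein, fell in both lines, in H2023 with log2 fold changes of -4.02 and -5.01 (limma adjusted p = 4.93e-04 and 1.046e-04). Between the cultures of A549 wild type, all 17 gut and gastric genes and 17 of 19 liver-type genes were called higher in stem-enriched culture. Of all 18227 genes, 3479 were called higher there and 4082 lower. The same wild-type libraries serve in the comparison of genotypes.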

How the data were processed

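mRNA levels in 16 libraries were compared. Per the labels' protocols, TruSeq stranded mRNA libraries were made from total RNA. HISAT2, StringTie and GRCh38 are named in the submitters' processing notes, and their versions and the annotation are not given in the sources used here. The authors deposited 4 tables, 1 per line and culture, with TPM per library. Per the file headers, the deposited tables also hold the mean normalized count of a table's libraries (a signal), a log2 fold change, its standard error and a test statistic (scores), and p-values with adjusted p-values. That statistic has the opposite sign to the fold change in all 18361 rows of each table, so directions came from the fold change. Genes at 0 TPM in all 4 libraries have a deposited mean count of about 1.0.

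Repeated identifiers (119) held identical values and were used once, leaving 18227 genes. Symbols came from the tables (15590) or from Ensembl names (2575). log2(TPM + 1) was fitted with limma 3.58.1 under R 4.3.3, using a mean-variance trend, over all 16 libraries, with 8 group means and 8 residual degrees of freedom. Tests were two-sided, with Benjamini-Hochberg adjustment over all genes per contrast and a threshold of 0.05. Sharing the spread over all groups calls more genes in H2023 than a fit of 4 libraries, which is an alternative. Folds on this scale understate changes of low genes. The fit was tested on simulated data. Intervals are 95% intervals of that fit.

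All members were named. From each gene list the 3 called genes with the largest change per comparison of genotypes, and 2 per comparison of lines or cultures, could be named, together with FGA, FGB, FGG, FXYD2 and the 3 genes most like each member. Members and lists were chosen with earlier results of these data known. Some genes of the lists and 1 motif are not reported here. Positions are from GENCODE 29 and promoter sequences from RefSeq, both GRCh38. Alternatives were the pseudocount, a filter on low values, the libraries in the fit, no trend, TPM without mitochondrial genes, median centring, a replicate block, each library left out and the authors' deposited tables.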

Additional observations from a re-analysis of the deposited data

Results flagged for a closer look

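The interaction term of limma called the change with genotype as different between the lines for 6 pairs of gene and culture. In each, the H2023 minus A549 difference was above 0, since the A549 knockout-labelled libraries were lower and the H2023 ones less low or higher. In normal culture HNF4A differed by 2.12 and HNF4G by 1.59. In stem-enriched culture HNF4A differed by 3.17, FOXA2 by 1.78, GATA6 by 1.71 and HNF4G by 1.28 on the log2 scale. From the authors' deposited tables the HNF4A difference in normal culture was 2.49 (adjusted p = 0.12). In that culture HNF4G differed by 2.996 (adjusted p = 4.102e-08) from the same tables. GATA6 differed there by 1.496 (adjusted p = 0.0398) and FOXA2 by 0.9785 (adjusted p = 0.00812). In stem-enriched culture the adjusted p-values from those tables were 2.144e-08 for HNF4A, 3.489e-06 for HNF4G, 2.26e-04 for GATA6 and 9.418e-04 for FOXA2. FOXA1 passed in neither culture (adjusted p = 0.8398 and 0.5524). The limma calls of HNF4A in normal culture and of FOXA2 and HNF4G in stem-enriched culture were lost with only the groups compared. On the log2(TPM + 1) scale, the low level of HNF4A in H2023 wild type limited how far it could fall there in both cultures. Each line is represented by 1 clone, so line and clone cannot be told apart.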

How the results depend on the processing

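By genotype in A549, 4 members were called in normal culture and 5 in stem-enriched culture. The first count was 5 with a pseudocount of 0.1, 3 with only the groups compared, 4 under the other alternatives and 2 to 4 with a library left out. The second was 4 with only the groups compared, 5 under the others and 4 to 5 with a library left out. In H2023 normal culture the authors' deposited table gave 1 call against 0. In H2023 stem-enriched culture the 1 call became 0 with a pseudocount of 0.1, with only the groups compared, with median centring and in the authors' deposited table, and 0 to 1 with a library left out. Between cultures, A549 labelled knockout had 2 calls with a pseudocount of 0.1 or without mitochondrial genes (0 to 2 with a library left out). H2023 wild type had 1 call with a filter on low values, without mitochondrial genes, with median centring and with the replicate block, and 0 to 1 with a library left out. H2023 labelled knockout had 1 call under the same 4 alternatives and with a pseudocount of 0.1, and 0 to 1 with a library left out. The difference between lines gave 1 call in normal culture with only the groups compared or without mitochondrial genes (1 to 3 with a library left out). In stem-enriched culture it gave 2 calls with only the groups compared (2 to 4 with a library left out).

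Leaving out a library turned the sign of FOXA2 in H2023 normal culture (-0.36 to 0.26) and of HNF4A in H2023 stem-enriched culture (-0.89 to 0.26), both uncalled. Over the named genes, 615 of the values under other alternatives kept their side of the threshold, 32 lost it and 7 gained it. The deviations of same-numbered libraries correlated with r of 0.461 in the genotype comparison of H2023 stem-enriched culture and -0.025 to 0.162 in the others. Whether same-numbered libraries are pairs is not given in the labels, and only 2 pairs would exist per comparison. The main fit did not pair them. In the genotype comparison of H2023 stem-enriched culture the replicate block called 1289 genes against 1014. With the replicate block, 4 and 5 members were called in A549 by genotype, as without it. Median centring moved the H2023 minus A549 split of all genes in normal culture from 4847 higher and 2720 lower to 3173 and 4424. It moved that of culture in H2023 wild type from 943 and 4043 to 1886 and 1764, and that of genotype in H2023 stem-enriched culture from 577 and 437 to 401 and 724. With only the groups compared, the H2023 wild-type culture comparison called 1105 genes against 4986. The liver-type list had 7 calls in H2023 normal culture in the authors' deposited table, and the other endoderm factors 8. The causes were not tested. TPM keeps no depth, so what low values can show is unknown.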
